A study of Drosophila melanogaster with 4 samples.

Results

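The peaks described here are all those on the X chromosome in a list of Homothorax binding sites from whole embryos of Drosophila melanogaster. They were taken by their chromosome alone, and number 603 of the 6207 peaks listed, or 9.71%. The list came from chromatin immunoprecipitation followed by sequencing (ChIP-seq), in which protein is cross-linked to DNA, the protein is pulled down with an antibody and the attached DNA is sequenced. The study has 4 libraries in 2 groups. The ChIP group has 2 libraries made with a crude guinea pig polyclonal serum raised against full-length, His-tagged Homothorax, and the input group has 2 libraries of genomic DNA. Both groups share the strain y cn bw sp, a stage label of 0 to 8 h and a sex label of unknown. Their genotype label gives y[1] and oc[R3.2], then cn[1] and bw[1] with sp[1], Gr22b[1] with Gr22d[1], and CG33964[R4.2]. It also gives lab[R4.2] with LysC[1] and MstProx[1], and GstD5[1] with Rh6[1]. The labels' protocol names an 8 to 16 h window, which differs from the stage label, and cross-linking in 1.8% formaldehyde for 15 min. Whole embryos of mixed age hold many cell types, so a peak may come from any of them.

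Homothorax belongs to the TALE class of homeodomain transcription factors. It binds DNA together with Extradenticle, brings Extradenticle into the nucleus, and the pair act as cofactors of the Hox proteins that set segment identity, as well as in Hox-independent patterning of the head, appendages and nervous system. Around developmental control genes, factors of this kind typically bind at several regulatory sites spread over many kilobases. In the gene table at hand, hth (CG17117) lies on 3R and exd (CG8933), which encodes Extradenticle, lies on X. That table describes release 6 of the genome and the peaks are on release 5, so its positions were not compared with them. Peaks are therefore given by position, as arm, start and end on FlyBase release 5, counted from 1. Which gene, exon, intron or UTR lies at a peak was not analysed here, and neither was the sequence beneath it. Each peak has 1 score, the authors' own value, of a scale not stated in the labels or the header. The score is used only to rank and describe peaks. The list holds no value per library, so no replicate error exists for any peak, read depth is unknown, and every comparison below is a description without a test.

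The X peaks reached from X:172775-173394 to X:22262957-22263864, an extent of 22.1 Mb. They covered 367 kb of it, or 1.66%. Their scores ran from 5.89 to 183.96, with quartiles of 10.97, 15.07 and 26.53. Their widths ran from 201 to 4323 bp, with quartiles of 297, 429 and 726 bp. A score of 40 or more, a round value used below to mark strong peaks, was held by 78 X peaks (12.9%), and a score of 100 or more by 13.

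Homothorax peaks were not spread evenly along X. In whole bins of 1 Mb the number ran from 1 to 58, with a median of 26.5 over 22 bins. The bin at 7 to 8 Mb held 58 peaks, that at 2 to 3 Mb held 52 and that at 17 to 18 Mb held 51. The median scores of these 3 crowded bins were close, at 15.07, 16.17 and 14.71 in this order. They differed in the strong peaks they held. The bin at 7 to 8 Mb had 9 peaks that scored 40 or more and a top score of 134.03, and the bin at 2 to 3 Mb had 8 such peaks and a top score of 142.69. The bin at 17 to 18 Mb had 4, and its top score was 44.54.

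Between 10 and 16 Mb the chromosome was sparse, apart from the bin at 12 to 13 Mb, which held 27 peaks. The whole stretch from 10 to 16 Mb held 83 peaks, or 13.8 per Mb. The density was 33.4 per Mb from 0 to 5 Mb, 35.0 per Mb from 5 to 10 Mb and 34.2 per Mb from 16 to 21 Mb. The borders of these stretches were set after the counts had been seen. The peaks of the sparse stretch were not weaker at the centre of their range: their median score was 15.43, against 14.89 from 0 to 5 Mb, 15.07 from 5 to 10 Mb and 16.36 from 16 to 21 Mb. The strongest peak of X lies in this stretch too, in its fuller bin at 12 to 13 Mb. Beyond 21 Mb only 7 peaks were listed, with a median score of 10.34 and none at 40 or more. The stretch at 5 to 10 Mb had the largest share of its peaks in groups. There, 76 of 175 peaks (43.4%) belonged to runs of 5 or more, against 24.6% from 0 to 5 Mb, 14.5% from 10 to 16 Mb and 24.0% from 16 to 21 Mb. A run here is a row of peaks in which no gap exceeds 5 kb.

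**Figure D1:**
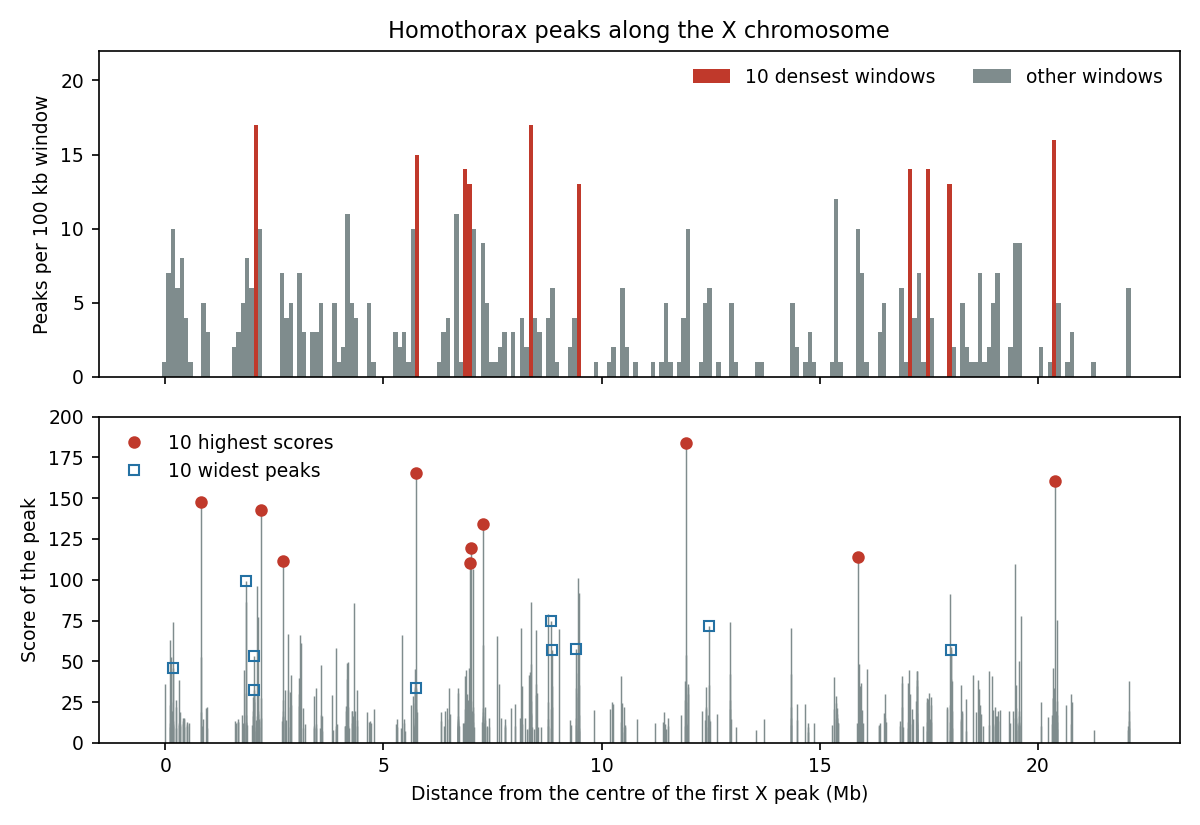
Upper panel, number of Homothorax peaks per 100 kb window, with the 10 densest windows in red. Lower panel, score of each of the 603 X peaks as a vertical line, with the 10 highest-scoring peaks as red circles and the 10 widest as blue squares. The horizontal axis is the distance from the centre of the first X peak in Mb. The densest windows reach 13 to 17 peaks, the highest scores run from 110.54 to 183.96, and no peak is both among the 10 strongest and among the 10 widest.

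In windows of 100 kb, the number of listed peaks along X was uneven. Tiled from position 1 to the last peak, X has 223 windows, with 2.70 ± 3.84 peaks each (SD across windows) and a median of 1. No peak centre fell in 95 windows (42.6%). Another 74 windows held 1 to 4 peaks and 35 held 5 to 9. The remaining 19 windows held 10 or more, and these 8.52% of windows carried 240 peaks, or 39.8% of all on X. After merging of peaks within 1 kb, only 1 window held 10 or more. At least 50% of the X peaks lay in 27 windows (12.1%). The 78 peaks at 40 or more were found in 51 windows, and 36 of them (46.2%) lay in the 19 windows with 10 or more peaks.

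The 10 densest windows differed in what they held. The window at 2.2 to 2.3 Mb had 17 peaks in 4 runs with a top score of 96.15, 3 of them at 40 or more. The window at 8.5 to 8.6 Mb also had 17 peaks, with a top score of 86.46 and 4 at 40 or more. Its median score was 10.34, so most of the peaks there were weak. The window at 20.5 to 20.6 Mb had 16 peaks spread over 7 runs and a top score of 160.47. The window at 5.9 to 6.0 Mb had 15 peaks, of which only the strongest, at 165.43, reached 40.

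A further 3 windows held 14 peaks each, at 7.0 to 7.1, 17.2 to 17.3 and 17.6 to 17.7 Mb. Their top scores were low beside the other dense windows, at 44.54, 44.54 and 30.82, and they held 2, 1 and 0 peaks at 40 or more. The last 3 of the 10 windows held 13 peaks each. The window at 7.1 to 7.2 Mb had a top score of 119.47, that at 9.6 to 9.7 Mb 101.12 and that at 18.1 to 18.2 Mb 91.26. The window at 9.6 to 9.7 Mb had the highest median score of the 10, at 28.15, and that at 18.1 to 18.2 Mb had the most DNA inside peaks, 12.6 kb. Over the 128 windows with any peak, the number of peaks and their median score had a Spearman rho of 0.09 across windows, which are not independent replicates. The median scores of the 10 densest windows ran from 10.34 to 28.15.

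With windows moved by 50 kb, the densest was at 5.85 to 5.95 Mb with 24 peaks. The tiling from position 1 cuts that group of peaks at 5.9 Mb, into 10 peaks at 5.8 to 5.9 Mb and 15 at 5.9 to 6.0 Mb. Of the 10 densest windows, 6 overlapped 1 of the 10 densest shifted windows.

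The gaps between neighbouring X peaks were of very different sizes. Of 602 gaps, 189 (31.4%) were at most 1 kb and 124 (20.6%) were over 1 and up to 5 kb, while 56 (9.30%) were over 100 kb. The median was 4.06 kb, and the quartiles on either side were 0.629 and 25.9 kb. Gaps over 100 kb added up to 15.0 Mb, or 67.8% of the extent of X. The smallest gap on X was 46 bp and the smallest in the whole list 44 bp.

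By the 5 kb limit the X peaks formed 290 runs. Of these, 159 were peaks alone, 106 were runs of 2 to 4 peaks and 25 were runs of 5 or more. The 25 longer runs held 170 peaks (28.2%) and together spanned 266 kb. This share was lower in settings with fewer peaks. It was 3.62% after merging of peaks within 1 kb, which left 414 X peaks. Among the 269 X peaks in the 50% of the list with the highest scores, it was 5.58%. Both settings leave fewer peaks to group under the same 5 kb limit, and the part of this in the lower shares was not tested. The length of the 25 runs had a median of 9.33 kb and a maximum of 23.9 kb, and peaks covered between 22.4% and 72.6% of it, with a median of 41.8%. Only 2 runs held 10 or more peaks.

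**Figure D2:**
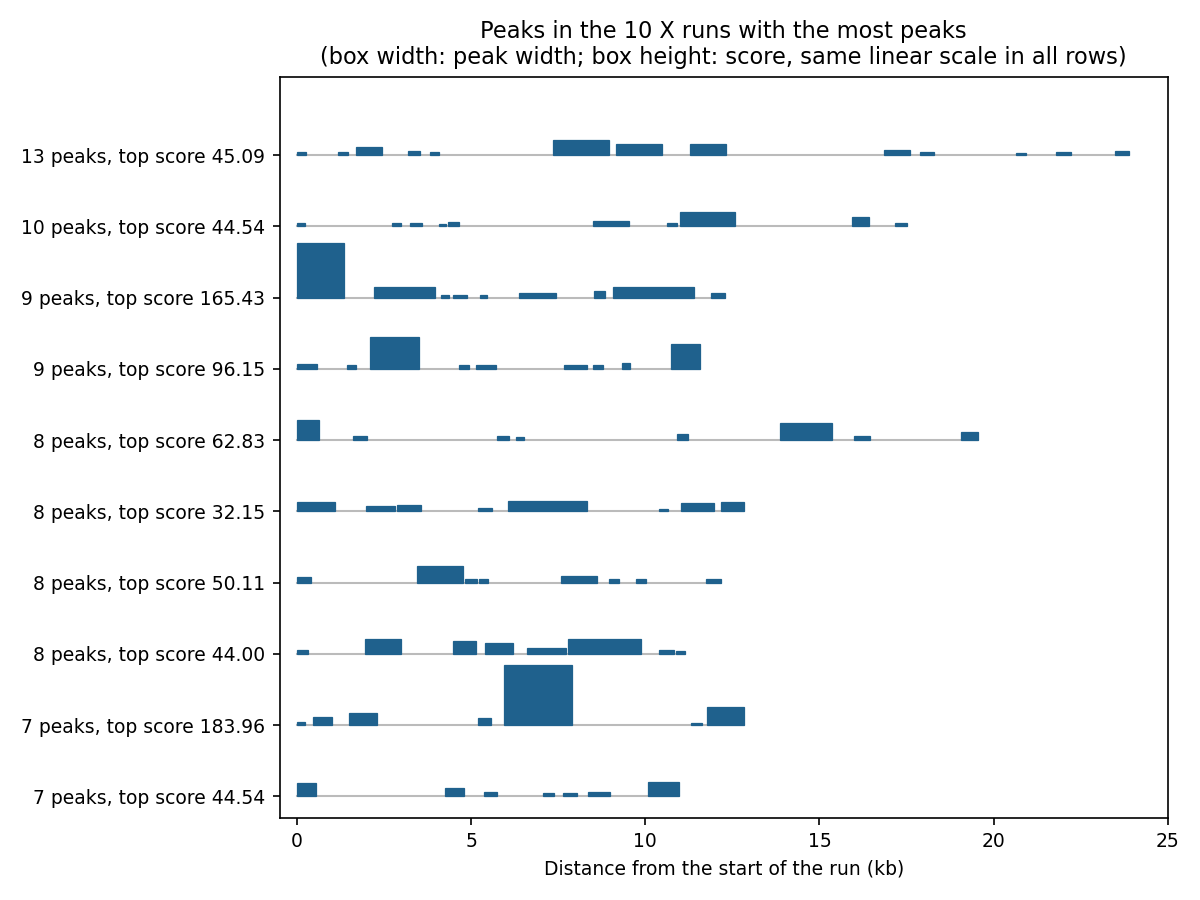
Layout of the 10 X runs with the most peaks, each row 1 run, drawn from its start (kb on the horizontal axis). A box is a peak, its width the peak's width and its height the score on the same linear scale in every row. The run of 13 peaks is made of low boxes with a top score of 45.09, while the upper run of 9 opens with a peak of 165.43 and the run of 7 near the bottom holds the highest score on X, 183.96.

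The run with the most peaks lay at X:5886850-5910722. Its 13 peaks spread over 23.9 kb had a median score of 11.94, and the highest, at X:5894191-5895809, reached 45.09. After a gap of 5.36 kb, just over the limit, came the run at X:5916084-5928372. It had 9 peaks in 12.3 kb and was 65.7% covered. It opened with the second strongest peak of X, while its next highest score was 33.40. With gaps of up to 10 kb allowed, both formed 1 group of 22 peaks over 41.5 kb, the largest on X under that limit too.

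The second largest run lay at X:17218777-17236294. It had 10 peaks in 17.5 kb, was 28.9% covered and had a median score of 10.98 and a top score of 44.54. In the run at X:2282521-2294094, 9 peaks lay in 11.6 kb. Scores of 96.15 and 77.09 belonged to its peak 3 and its last peak, and the other 7 stayed below 40. The run at X:292007-311567 was the loosest of the 10, with 8 peaks over 19.6 kb and 22.4% covered. Its top scores were 62.83, on the first peak, and 52.40.

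The other runs of 8 peaks differed in how even they were. At X:2190106-2202932, 8 peaks in 12.8 kb had a median score of 23.13 and a top score of 32.15, so no single peak led. At X:17395791-17406915, 8 peaks in 11.1 kb were 60.2% covered, had a median score of 26.55, and 2 of them shared the top score of 44.00. At X:19732853-19745019, by contrast, the top score was 50.11, the next 19.27 and the median 12.28.

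On X, 4 runs tied at 7 peaks, and the 2 longest of them completed the 10. The run at X:12094522-12107367, 12.8 kb long, contained the strongest peak of X, and its next highest score was 54.14. No peak was listed for 99.3 kb before it. The run at X:7053210-7064165 began with a score of 40.78 and ended with one of 44.54, and its median was 13.99.

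Most of the longer runs held a strong peak. Of the 25 runs of 5 or more, 21 had a peak at 40 or more. In 13 of them it was a lone strong peak, and 8 had more than 1. The top scores had a median of 62.83 and the second highest scores a median of 30.77. The top peak was the first of its run in 7, the last in 3 and an inner one in 15. Of the 106 runs of 2 to 4 peaks, 29 had a peak at 40 or more (27.4%), but a run with more peaks also has more values from which its top is taken.

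Taken peak by peak, the centre of the scores hardly moved with crowding. The median score was 15.07 for the 159 peaks alone, 15.07 for the 274 in runs of 2 to 4 and 15.62 for the 170 in runs of 5 or more. The upper end moved more. Of the peaks alone, 9.43% scored 40 or more, as did 12.4% of those in runs of 2 to 4 and 17.1% of those in runs of 5 or more. Scores of 100 or more were held by 1 peak alone, 5 in runs of 2 to 4 and 7 in the longer runs. Median width was 374 bp for peaks alone, 497 bp in runs of 2 to 4 and 433 bp in runs of 5 or more.

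**Figure D3:**
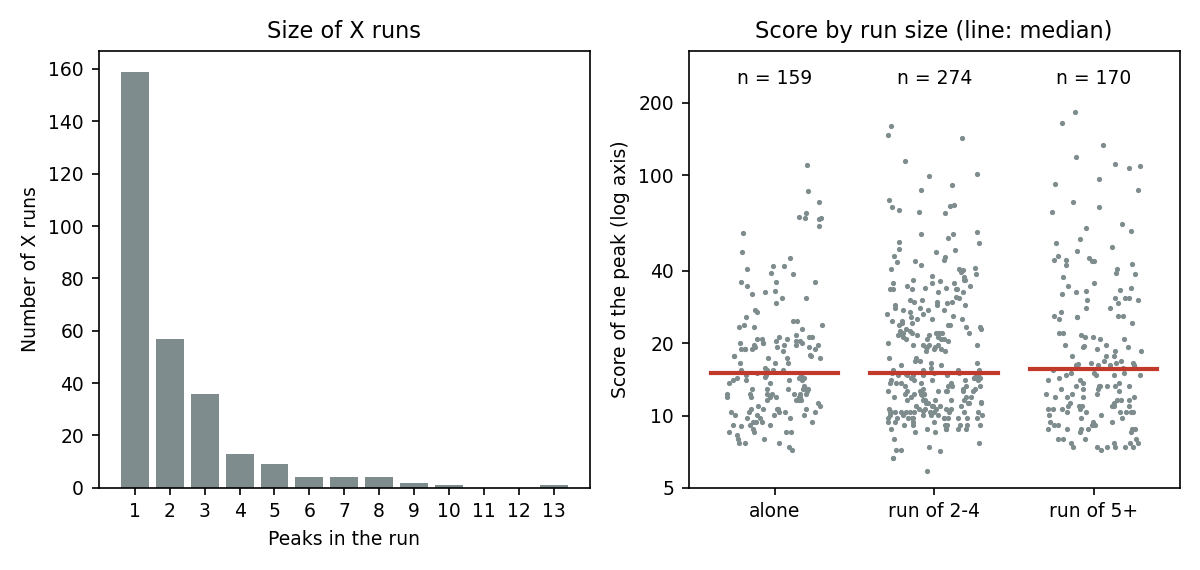
Left, number of X runs by the number of peaks in the run. Right, score of every X peak on a log axis by the size of its run, with the median as a red line (15.07, 15.07 and 15.62 from left to right). The medians lie at nearly the same height, and the points above 100 are 1, 5 and 7.

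Strong peaks on X had another peak right beside them about as often as weaker peaks did. Of the 78 peaks at 40 or more, 44 (56.4%) had another peak within 1 kb. Those neighbours numbered 53, with a median score of 13.30 and a median width of 416 bp, and 2 of them reached 40. Among the 525 peaks below 40, 274 (52.2%) had another peak within 1 kb, a share close to that of the strong peaks. The neighbours of these weaker peaks numbered 280, with a median score of 15.43, and 43 of them reached 40. Of all X peaks, 12.9% reached 40, a larger share than the 2 of 53 neighbours of strong peaks. The 43 are not a separate comparison, since they come from adjacent pairs of a strong and a weaker peak seen from the other side. These differences were not tested. Merging peaks with gaps of at most 1 kb left 414 X peaks.

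The strongest peak of X lay at X:12100450-12102419 and scored 183.96 over a width of 1970 bp. The second, at X:5916084-5917429, scored 165.43 and was 1346 bp wide. The third, at X:20561033-20562336, scored 160.47 in a run of 3 whose other peaks were at 11.29 and 13.30. The fourth was the most compact of the 10 strongest, at X:999979-1000741, with a score of 147.47 in 763 bp. It was the first peak after 281 kb without any, and opened a run of 4 with a further strong peak of 52.40.

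The fifth peak, at X:2359294-2360927, scored 142.69 in a run of 3. The sixth, at X:7449645-7451290, scored 134.03 in a run of 6. Of the other four, the peak at X:7189321-7190703 scored 119.47 and lay inside a run of 7, in which the 6 others scored 25.63 or less. The peak at X:16047997-16049783 scored 114.24 in a run of 3. The peak at X:2876261-2877887 scored 111.28 as the first of a run of 5.

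The tenth, at X:7166743-7168609 with a score of 110.54, stood alone, 14.3 kb from the peak before it and 18.6 kb from the peak after it. It is the only peak on X that stood alone with a score above 100. With the peak at X:7189321-7190703 and the peak at X:7215745-7216791, which scored 106.89, it puts 3 of the 13 peaks above 100 close together. Of the 10 strongest, 5 were in runs of 5 or more, which held 28.2% of all X peaks. In the 10 densest windows, which held 13 to 17 of the 603 X peaks each, lay 4 of the 10 strongest. With only 10 peaks, neither count is read as a trait of strong peaks.

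The 10 strongest peaks ranked between 14 and 139 by width, with a median of 26.5. The 10 widest X peaks ran from 2204 to 4323 bp, and none was among the 10 strongest, whose widths ran from 763 to 1970 bp. Both lists are short beside the 603 X peaks and end at a set limit of 10. The empty overlap therefore says little about how width and score go together. The widest, at X:9024441-9028763, was 4323 bp wide and scored 57.22. It lay 225 bp after another of the 10, at X:9021411-9024215, which was 2805 bp wide and scored 74.48. Only 202 bp separated the widest from the next peak, of 624 bp, so this place was nearly continuous over the 3 peaks.

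The second widest peak, at X:18191643-18195639, was 3997 bp wide and scored 56.86. The third, at X:2028683-2032423, had the highest score of the 10 wide peaks, 98.98 over 3741 bp. The fourth, at X:350757-353630, scored 46.19 over 2874 bp. At the low end, the peak at X:5925144-5927476 scored 33.40 over 2333 bp and the peak at X:2196157-2198419 scored 32.15 over 2263 bp. Both belonged to runs already described, of 9 and 8 peaks.

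The remaining wide peaks were at X:2212295-2214626 with 2332 bp and a score of 52.98, at X:12645510-12647763 with 2254 bp and 71.91, and at X:9593806-9596009 with 2204 bp and 57.68. The last of these stood alone by the 5 kb limit, and the others were in runs. Over all 603 X peaks, width and score had a Spearman rho of 0.79. This is a description across peaks, which share their libraries and their caller. The 10 widest peaks ranked between 14 and 118 by score. At the other end, the 158 peaks of at most 300 bp had a median score of 10.34 and none above 21.31.

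**Figure D4:**
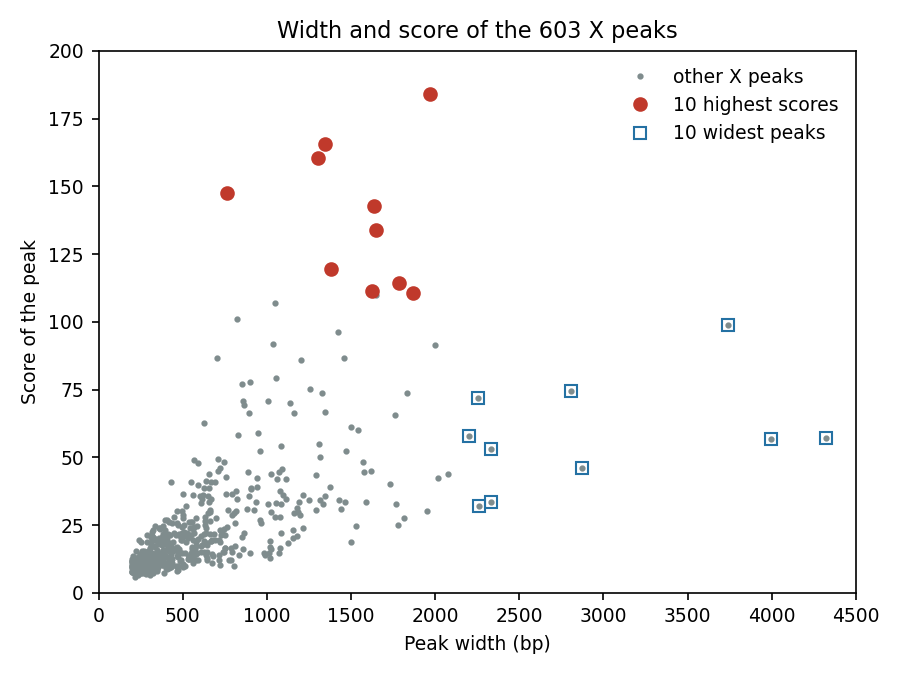
Width in bp against score for the 603 X peaks, with the 10 highest scores as red circles and the 10 widest peaks as blue squares. The 10 strongest peaks lie between 763 and 1970 bp, and the 10 widest score between 32.15 and 98.98.

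Peaks alone made up 26.4% of the X peaks. Their nearest neighbour lay a median of 19.3 kb away, over 50 kb away for 25 of the 159 and over 100 kb away for 12. Their median score, 15.07, was that of all X peaks. A score of 40 was reached by 15 of them (9.43%), against 12.9% of all X peaks. Of these 15, 10 had no peak within 10 kb on either side. The most remote of them, at X:9187910-9189048, scored 70.00 over 1139 bp with 152 kb free of peaks before it and 259 kb after it. The peak at X:19791406-19792304 scored 77.76 and was the last before 456 kb without a peak. The peak at X:4490354-4491556 scored 85.78 with gaps of 21.7 and 19.3 kb. These 3 were chosen after their values had been seen.

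The longest stretch of X between peaks was 766 kb, at X:21465623-22231774. The next were 644 kb at X:1129781-1773675, 631 kb at X:13890367-14520977, 545 kb at X:5950863-6495688 and 517 kb at X:20948495-21465421. The first and the fifth of these are parted by 1 peak of 201 bp with a score of 7.70, so that 1 weak peak divides over 1 Mb near the end of the listed range. Beyond the longest stretch, 6 peaks were listed, the highest at 38.17. The stretch of 545 kb follows closely on the largest group of peaks on X. Whether reads can be placed uniquely in these stretches was not examined.

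Beside the 4 large autosome arms, X peaks were grouped in shorter runs. On X, 28.2% of peaks were in runs of 5 or more, against 61.3% on 2L, 58.2% on 3R, 55.9% on 3L and 48.8% on 2R. After merging of peaks within 1 kb, an alternative added for the other arms after the data had been seen, the share was 3.62% on X and 16.6% to 23.5% on these 4 arms. Among the highest-scoring 50% of the list it was 5.58% on X and 19.1% to 41.0% on them. The largest run had 13 peaks on X, against 56 on 2L, 36 on 3R, 31 on 3L and 29 on 2R. Peaks alone made up 26.4% on X and 13.2% to 17.4% on these 4 arms. The median gap was 4.06 kb on X, against 1.19 kb on 2L and 2.11 kb on 2R, the lowest and highest of the 4. Chromosome 4, with 45 peaks, had no run of 5 or more, 33.3% of its peaks alone and a median gap of 7.97 kb, longer than that of X. The number of peaks moves with these shares: X has 603 over about as many windows, 223, as 2L has for 1376, namely 225. Its part in the difference in run length was not tested.

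The share of windows without a peak was 42.6% on X, against 22.2% to 26.7% on the 4 large autosome arms. The 10% of windows with the most peaks held 45.6% of the X peaks, against 46.8% on 3R, 42.9% on 3L, 41.9% on 2L and 39.3% on 2R. Peaks over 2 kb were 12 of 603 on X (1.99%), against 5.31% on 2R and 9.52% on 2L, the lowest and highest of the 4 arms. None of the 45 peaks on chromosome 4 was over 2 kb. The median score of peaks alone was 15.07 on X, within the 14.16 to 16.55 of those arms. In runs of 5 or more it was 15.62 on X and 15.95 to 18.48 on the others.

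**Figure D5:**
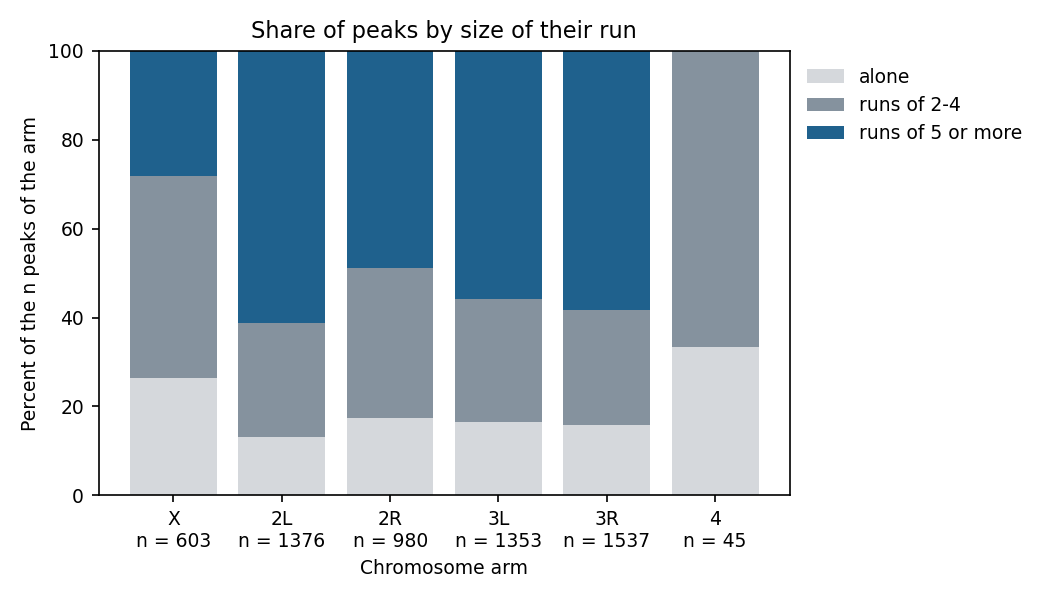
Percent of the peaks of each arm that stood alone, lay in runs of 2 to 4 or lay in runs of 5 or more (gaps of at most 5 kb), with the number of peaks n under each arm. The share in runs of 5 or more is 28.2% on X and between 48.8% and 61.3% on the 4 large autosome arms.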

How the data were processed

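The authors deposited 1 peak table for the series, with a start, an end and 1 score per peak. Per the file headers, it is on FlyBase release 5 and was written by MACS. Per the submitters' processing notes, the build is BDGP5 and the tools were CASAVA (1.7.0.2 and 1.7.0.3), BWA and MACS2. The scale of the score, the calling threshold and any pooling of replicates are stated in none of these sources. All X peaks were used, with no filter. Peaks were placed by their midpoint in windows of 100 kb, and runs were rows of peaks with gaps of at most 5 kb. The rule for regions to name takes the 10 strongest and 10 widest peaks, the 10 densest windows, the 10 runs with most peaks and the 5 longest gaps. Members, lists and limits were chosen with earlier results of these data known. The planned gene and motif steps were not run, since no genome or annotation of release 5 was used here. Python 3.11.15, numpy 2.4.6, pandas 2.3.3, scipy 1.17.1 and matplotlib 3.10.9 were used. The code of the grouping steps was checked on 20 simulated lists built with gaps on either side of the 5 kb limit. In all 20 the runs and window counts matched, as did the number of merged peaks and the total in shifted windows. This checks the code and says nothing about real peak lists.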

Additional observations from a re-analysis of the deposited data

How the results depend on the processing

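Of 23 alternatives for the X peaks, 8 stayed within the limits used: 1.5 times for counts, and the 95% binomial interval (exact, counting error only) for shares and medians. The share of X peaks in the 10% densest windows, 45.6%, stayed inside its interval of 41.6% to 49.7% in its 3 alternatives (41.8% to 48.4%). The interval treats peaks as independent draws, which they are not, and these windows were picked by the counts they held. It serves only as a limit of size, and lying inside it does not show that the share is stable. Windows with 10 or more peaks numbered 19, against 8 with windows of 50 kb, 1 among the 269 X peaks in the 50% of the list with the highest scores, and 1 after merging of peaks within 1 kb. The highest number in a window was 17, against 27 with windows of 200 kb and 10 among the highest-scoring peaks. The limit of 10 peaks was kept when the window size changed, so counts at 50 and 200 kb are not like for like. The 8 alternatives within limits include such a case, 22 windows of 200 kb with 10 or more peaks. They also include the highest number in a window of 50 kb, 14, which is set against windows of 100 kb and is not like for like either. Peaks alone made up 26.4%, against 46.5% among the highest-scoring peaks, 50.0% after merging, 37.8% with gaps of at most 2 kb and 17.2% with gaps of at most 10 kb. Peaks in runs of 5 or more made up 28.2%, against 5.58% among the highest-scoring peaks, 3.62% after merging, 14.4% with gaps of at most 2 kb and 48.4% with gaps of at most 10 kb. Merging moved the median score to 19.27 and the median width to 622.5 bp, since it joins peaks and keeps the higher score. The settings with fewer peaks have fewer to group. No paired analysis was possible because each peak has 1 value for the whole series, and no replicate could be left out. Depth limits could not be set.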

Other observations

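Scores on X took few distinct values. The 603 peaks had 160 different scores, and 529 of them (87.7%) shared their score with at least 1 other X peak. The commonest value, 10.34, occurred 23 times. Ranks among the weaker X peaks are therefore often tied, whereas the 13 scores above 100 were all different. In the whole list, 76.7% of peaks shared their score with another.

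Wide X peaks also tended to have company at close range: 64 of the 97 peaks over 1000 bp (66.0%) had another peak within 1 kb, compared with 83 of the 158 peaks of at most 300 bp (52.5%). The peaks over 1000 bp had a median score of 41.85, and 51 of them reached 40. These widths were chosen after the data had been seen, and the difference was not tested.

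Among the 50% highest-scoring peaks of the whole list, the densest X window was at 18.1 to 18.2 Mb, where 10 of the 13 peaks remained. The window at 8.5 to 8.6 Mb kept 6 of its 17. In all, 269 X peaks (44.6%) were among them.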
